A study of Mus musculus with 4 samples.

Results

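Blood stem and progenitor cells labelled Mll3 deleted were compared with control cells of the same sort across all genes that were counted well enough. A gene was a member of the comparison when its unique molecular identifiers (UMIs, each standing for 1 captured transcript) reached 20 CPM, counts per 1000000 UMIs of the library, in at least 1 of the 2 libraries. UMIs were summed over cells in which 1000 genes or more were seen and mitochondrial genes took 10% of UMIs or less. Of 32285 genes in the matrices, 6322 were members: 5848 reached the minimum in both libraries, 337 in the Mll3 deleted library only and 137 in the control library only. Just inside the minimum were Fbxw11 at 20.0081 and Nfyc at 20.0175 CPM in the Mll3 deleted library, and just outside it were Coq4 and Hif1an, both at 19.9986. The cells were mouse bone marrow LSK cells (lineage negative with Sca1 and Kit on the surface) that carried CD45.2, an antigen used to tell donor from recipient blood cells, collected 10 weeks after transplantation. One library was titled Mll3 deleted LSK, with the library name Mll3_ko, and the other control LSK, with the library name WT. Both carried the same sort and the same time after transplantation. The deleted allele, the Cre line or other means of deletion, the recipients and the number of mice behind each library were not given in the sources used here. The study also profiled libraries titled Mll4 deleted and Mll3/4 deleted, whose values are set beside those of some members. Those libraries share the control library with this comparison.

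Mll3 is the protein of Kmt2c, a large histone methyltransferase that works with Mll4, the protein of Kmt2d, in a complex that marks enhancers by methylating histone H3 at lysine 4. Each enzyme sits with shared partners such as Kdm6a, a histone demethylase, and Wdr5 and Ash2l, structural subunits. In LSK cells, stem cells and multipotent progenitors start to express genes of the myeloid and lymphoid branches at low levels before they commit to one.

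The control library held 7274 cells that passed the filters of 7682 deposited barcodes, with 119328763 UMIs and a median of 14454 per cell. The Mll3 deleted library held 6101 cells of 6560 barcodes, with 105907176 UMIs and a median of 15381 per cell. The 2 libraries shared 14 cell barcodes. Each genotype has 1 library, so differences cannot be set against a spread between samples and no test was made. Every interval is a 95% interval that covers counting error only. Kit was at 214.8 CPM in the control library and 216.0 in the Mll3 deleted library, and Ly6a, which encodes the Sca1 antigen, at 93.4 and 132.5. Markers of stromal cells were low in both libraries, with Col1a1 at 0.17 and 0.12 CPM. Cxcl12, a stromal chemokine, was at 4.34 CPM in the control library and 0.057 in the Mll3 deleted library.

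Kmt2c (ENSMUSG00000038056, chr5:25271798-25498783, minus strand, GRCm38) was at 68.9 CPM (67.4 to 70.4) in the control library and 35.3 (34.2 to 36.5) in the Mll3 deleted library. Its log2 ratio, Mll3 deleted over control, was -0.96 (-1.02 to -0.91), which is just short of 2-fold. The targeted gene was therefore lower in the library named for its deletion, but far from absent. Counts near the 3' end can include the message of an allele that is deleted further upstream. Kmt2d was at 24.6 and 21.6 CPM, a log2 ratio of -0.19. In the libraries titled Mll4 deleted and Mll3/4 deleted Kmt2d was at 22.6 and 25.4 CPM, so Kmt2d does not set them apart from the control. Kmt2c was at 61.3 and 42.3 CPM in them, against 68.9 in the control. They are named here by their titles alone. The other members within 2 Mb of Kmt2c were all within 2-fold, from -0.58 for Tomm7 to 0.37 for Rheb. Of the 15 members in a list of histone H3 lysine 4 methyltransferases and their partners, none passed 2-fold. The list's median log2 ratio was 0.02, with a sign that changed to -0.08 under TMM scaling, which sets libraries level by a trimmed mean of their ratios. Kdm6a was at 43.8 and 44.6 CPM, and Wdr5 at 32.6 and 34.0.

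Across the 6322 members the median log2 ratio was 0.11, the SD over genes was 0.36, and 90% of members lay between -0.49 and 0.43. At least 2-fold higher in the Mll3 deleted library were 53 members (0.838%), and at least 2-fold lower were 29 (0.459%). At 1.5-fold the counts were 150 (2.37%) higher and 220 (3.48%) lower, and at 3-fold 25 (0.395%) and 7 (0.111%). Scaling moved the split at 2-fold. With TMM scaling, which shifts every ratio down by 0.10, 43 members were higher and 47 lower, and with median-of-ratios scaling, which shifts them by 0.11, 43 were higher and 50 lower. Under either scaling 43 of the 53 higher genes and all 29 lower genes stayed past 2-fold. Among the 53 higher genes were members of the pre-B-cell receptor, immediate early genes and interferon-inducible GTPases. Among the 29 lower genes were Tspan32, neutrophil granule and S100 genes, and Tmsb10.

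**Figure D1:**
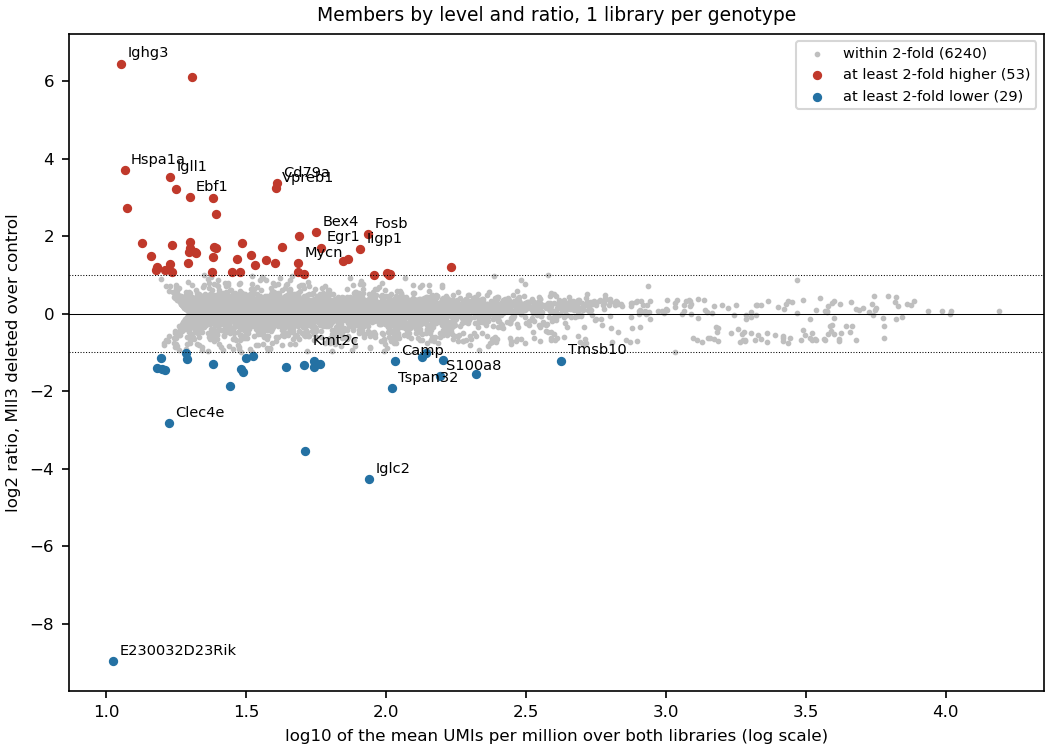
Each point is 1 of the 6322 members, with the log10 of its mean level over both libraries in CPM on the horizontal axis and its log2 ratio, Mll3 deleted over control, on the vertical axis. Most points lie in a band near 0, and the 53 members at least 2-fold higher and 29 at least 2-fold lower lie past the dotted lines. Their median mean levels are 24.7 and 43.8 CPM, against 48.1 over all members.

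Genes of the B-cell lineage had some of the highest ratios. Cd79a (chr7:24897381-24902197), a signalling chain of the B-cell receptor, was at 7.24 CPM in the control library and 74.3 in the Mll3 deleted library, a log2 ratio of 3.36 (3.26 to 3.46). Vpreb1 and Igll1, which together form the surrogate light chain of the pre-B-cell receptor, were at 7.74 and 72.9 and at 2.72 and 31.2 CPM. Vpreb3, a pre-B-cell chaperone, was at 5.43 and 42.9 CPM. Ebf1, a transcription factor that specifies B cells, was at 4.41 and 35.4 CPM. Of 6 members in a list of B-lineage transcription factors, only Ebf1 passed 2-fold, and 3 were below 0, the lowest at -0.48. The list's median was 0.14, which turned to -0.07 at a minimum of 100 CPM. Igll1 and Vpreb1 lie 4.418 kb apart on chromosome 16. In the libraries titled Mll4 deleted and Mll3/4 deleted, Cd79a was at 12.1 and 3340 CPM and Vpreb1 at 4.23 and 3140.

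Several genes of the B-cell receptor and pre-B receptor were higher, and cells with several B-lineage UMIs made up a larger share of the Mll3 deleted library. Of the 9 members in the list of B-cell receptor and pre-B receptor genes, 4 were at least 2-fold higher and none lower, with a median log2 ratio of 0.79. Over all members 0.838% were at least 2-fold higher. The 4 genes, Cd79a, Vpreb1, Vpreb3 and Igll1, were under 20 CPM in the control library. They passed the minimum through the Mll3 deleted library alone, so they could not have counted as lower. Syk and Btk, kinases downstream of the receptor that myeloid cells also express, had ratios of -0.37 and -0.20. Pax5, a factor of committed B cells, was below the minimum, at 0.61 CPM in the control library and 6.52 in the Mll3 deleted library. Cells with at least 5 UMIs over 8 B-lineage markers made up 60 of the control cells (0.825%) and 251 of the Mll3 deleted cells (4.11%). Without those cells the ratio of Vpreb1 was 0.17, that of Cd79a 2.20, that of Ebf1 2.43 and that of Igll1 3.21, while the list median turned to -0.26. These genes are among the markers that chose the cells, which held 51.4% of the marker UMIs in the control library and 89.9% in the Mll3 deleted library, so these ratios do not locate the difference. After each cell was thinned to 3000 UMIs, Cd79a was seen in 0.537% of control cells and 3.52% of Mll3 deleted cells, against 0.880% and 4.64% before thinning. In cells with the surface proteins of stem cells, which should lack this gene, the thinned shares were 0.058% and 0.222%, at median depths of 11735 and 14652 UMIs. In MPP1 to MPP4, gates of multipotent progenitors, these shares were 0.103% and 0.206%, 0.583% and 6.22%, 0.528% and 9.25%, and 1.95% and 10.4%. Over list genes at 20 CPM in a gate, the median log2 ratio was -0.17 over 5 genes in the stem-cell gate and -0.10 over 4 in MPP1. It was 2.39 over 10 genes in MPP2, and 3.89 and 2.74 over 11 each in MPP3 and MPP4. In the CD150 and CD135 positive gate it was 0.16 over 6 genes. The genes that reached the minimum differed between gates, so these medians do not follow the same genes.

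The other lymphoid genes named here differed by less or had most of their UMIs in 1% of the cells. Dntt, which encodes a DNA polymerase of early lymphoid cells, was at 106.0 and 177.9 CPM, a log2 ratio of 0.75. Flt3, a cytokine receptor of lymphoid-primed progenitors, was at 64.0 and 48.6. The 11 members of the lymphoid priming list had a median of -0.07, which changed sign to 0.15 when cells were weighted to the control's surface gates. By gate, over list genes at 20 CPM there, the list's median was -0.14 over 4 genes in stem cells and 0.01 over 8 in MPP1. It was 0.45 and 0.29 over 12 each in MPP2 and MPP3, and 0.26 over 13 in MPP4. In the CD150 and CD135 positive gate it was -0.01 over 6. Il7r of this list, under the minimum at 5.16 and 14.4 CPM, was past 2-fold higher in MPP2, MPP3 and MPP4. Mzb1, a secretory pathway protein of plasma and marginal zone B cells, was at 16.1 and 42.6 CPM. Cells with at least 5 UMIs over 4 plasma or mature B-cell markers numbered 67 (0.921%) and 225 (3.69%). Of the other markers Igkc was at 2078 and 3823 CPM, Jchain at 342 and 417, and Ms4a1 at 0.36 and 0.25. Igkc and Jchain were past 2-fold lower in the stem-cell, MPP1 and MPP2 gates and past 2-fold higher in MPP3. Cd3g, a chain of the T-cell receptor complex, was at 3.10 and 20.6 CPM, and 99.6% of its UMIs in the Mll3 deleted library lay in 1% of the cells. Of the 3 members in a list of T-cell and innate lymphoid genes, Cd3g was past 2-fold higher and Nkg7 past 2-fold lower. The list's median was -0.31, which turned to 0.70 with the stricter cell filter. Under the minimum, Cd3e was at 0.37 and 1.44 CPM and Cd3d at 0.68 and 0.39. Immunoglobulin constant genes were held by few cells and went both ways. Ighg2b was at 0.58 and 40.1 CPM and Iglc2 at 165.3 and 8.55, with 99.4% and 99.8% of UMIs in 1% of the cells of the higher library. These constant genes have near-identical copies, so their counts are uncertain.

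Immediate early genes, which cells transcribe within minutes of a signal, were higher as a group. All 14 members of this list were above 0 and 13 above the all-member median, 5 were at least 2-fold higher, and the list median was 0.95, against 0.11 over all members. The list median was lowest at 0.78, with cells weighted to the control's surface gates. Fosb, a subunit of the AP-1 transcription factor, was at 33.7 CPM in the control library and 139.0 in the Mll3 deleted library, a log2 ratio of 2.05 (2.0 to 2.10). Fos, another AP-1 subunit, was at 39.3 and 101.0 CPM. Egr1, a zinc-finger factor, was at 27.5 and 89.4. Klf2, a factor of quiescence and trafficking, was at 5.89 and 20.9 CPM, and Dusp1, a phosphatase of MAP kinases, was at 19.3 and 41.0. Jund and Zfp36 lay just inside 2-fold at 0.99 and 0.98, and Ier3 was almost level at 0.07.

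The promoters of Fos and Fosb are shown because letters of the cAMP response element recur in this list. They are RefSeq windows on GRCm38.p6 from 250 bases before to 50 after the start, at chr12:85473640-85473939 on the plus strand for Fos and chr7:19309996-19310295 on the minus strand for Fosb. The capitals mark TGACG, the cAMP response element's core, searched on both strands. It also lies within the full element TGACGTCA.
Fos: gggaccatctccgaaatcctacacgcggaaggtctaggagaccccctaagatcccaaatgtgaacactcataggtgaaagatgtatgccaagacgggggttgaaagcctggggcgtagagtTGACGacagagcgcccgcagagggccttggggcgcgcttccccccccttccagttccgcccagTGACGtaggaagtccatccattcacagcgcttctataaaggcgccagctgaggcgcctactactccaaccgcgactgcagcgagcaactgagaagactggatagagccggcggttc
Fosb: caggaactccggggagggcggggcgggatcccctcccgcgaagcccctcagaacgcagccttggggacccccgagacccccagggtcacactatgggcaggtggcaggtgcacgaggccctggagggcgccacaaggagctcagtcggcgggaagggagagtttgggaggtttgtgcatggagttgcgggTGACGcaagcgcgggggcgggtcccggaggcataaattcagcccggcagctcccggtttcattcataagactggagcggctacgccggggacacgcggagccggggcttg
The core lay in 13 of 23 promoters of the immediate early list, in 34.6% of member promoters and in 20.8% of all promoters in the table. Of the 53 higher genes 41 were matched, with 44 promoters, and 17 of these (38.6%) held it, which is near the share over members. The CArG box, CC then a run of A or T then GG, was also searched. It lay in 5 of the 23 promoters, in 0 of the 44 and in 1.19% of member promoters. A match describes letters in this window and no binding site.

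Interferon-gamma inducible GTPases, which attack the vacuoles of intracellular pathogens, were also higher. Of 9 members in this list 3 were at least 2-fold higher and none lower, with a median log2 ratio of 0.45. Iigp1 was at 38.9 CPM in the control library and 123.0 in the Mll3 deleted library, a log2 ratio of 1.66 (1.61 to 1.71). Igtp was at 23.1 and 57.0 CPM, and Irgm2 at 11.4 and 28.0. The annotated bodies of Igtp and Irgm2 overlap on chromosome 11, so their counts may not be separate. Gbp7 and Irgm1 were at 0.60 and 0.45, while Ifi47 was level at -0.02. Genes of the type I interferon response did not follow as a group: of 12 members none passed 2-fold and the median was 0.16, with Ifitm1 at -0.60. That median turned to -0.06 at a minimum of 100 CPM.

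The promoters of Igtp and Irgm2 (RefSeq, GRCm38.p6, chr11:58199306-58199605 and chr11:58214727-58215026, both plus strand) are shown with an interferon-stimulated element in capitals, searched as GAAA, any 2 bases, then GAAA, on both strands.
Igtp: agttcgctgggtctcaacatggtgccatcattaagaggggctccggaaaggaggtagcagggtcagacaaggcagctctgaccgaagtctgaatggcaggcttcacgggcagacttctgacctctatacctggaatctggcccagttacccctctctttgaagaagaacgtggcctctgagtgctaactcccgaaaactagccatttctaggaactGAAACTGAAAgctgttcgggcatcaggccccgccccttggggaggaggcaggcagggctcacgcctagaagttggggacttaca
Irgm2: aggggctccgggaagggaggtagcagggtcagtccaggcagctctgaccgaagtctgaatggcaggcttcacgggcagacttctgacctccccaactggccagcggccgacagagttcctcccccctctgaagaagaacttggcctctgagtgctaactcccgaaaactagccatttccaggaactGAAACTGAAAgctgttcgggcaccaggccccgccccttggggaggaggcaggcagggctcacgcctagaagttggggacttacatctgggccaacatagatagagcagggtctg
Both windows carry the same letters, GAAACTGAAA, at 34 and 64 bases before the start. The windows are largely alike in sequence at an offset, so these are not 2 separate occurrences. The element lay in 9 of 11 promoters of this list, in 4 of 44 promoters of the higher genes, and in 3.44% of all promoters in the table.

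Genes of antigen presentation on MHC class II, which display peptides to T cells, were higher together. Of 10 members of the class II and dendritic list, 9 were above 0 and 8 above the all-member median, 2 were at least 2-fold higher, and the median was 0.59. H2-Eb1 was at 60.0 and 120.6 CPM, and Cd74, the invariant chain, was at 164.8 and 322.8. Within the surface gates H2-Eb1 ranged from 0.43 to 1.67. Ly6d, counted in this list but also a marker of B-lineage progenitors, was at 13.4 and 47.5 CPM. Dendritic-cell markers outside class II were low in both libraries, with Siglech at 0.10 and 0.12, Xcr1 at 1.28 and 2.59 and Clec9a at 0.96 and 1.84 CPM, and their part in the class II values was not tested. Genes of MHC class I differed less, with a median of 0.30 over 12 members and B2m at -0.10.

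Single genes with higher levels had varied roles. Bex4 and Bex1, small adaptor proteins whose genes lie 73.529 kb apart on the X chromosome, were at 21.2 and 91.6 CPM and at 40.2 and 105.9. Bex6 of the same family was at 49.8 and 25.8. Selenom, a selenoprotein of the endoplasmic reticulum, was at 19.4 and 78.2 CPM, and Mt1, a metal-binding metallothionein, at 19.8 and 65.0. Mycn, a Myc family factor of stem cells, was at 28.1 and 68.9 CPM, whereas Myc was at 112.4 and 121.4. Aldh1a1, a retinal dehydrogenase, was at 20.8 and 53.8, and Klf9, a glucocorticoid-responsive factor, at 31.3 and 65.5. Hspa1a, an inducible heat shock protein, was at 1.65 and 21.6 CPM while Hspa8, its constitutive relative, was at 1470 and 1704. Hspa1a has a near-identical copy and Tpm3-rs7, at 103.0 and 237.4 CPM, may share reads with Tpm3, so both are uncertain. Cavin2, a caveolar protein also found in platelets, was at 10.6 and 31.2, and Asns, asparagine synthetase, at 18.3 and 38.2.

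Tspan32 (chr7:143005046-143019644), a tetraspanin of blood cells, was lower in every surface gate of the LSK cells. It was at 166.2 CPM (19838 UMIs) in the control library and 43.7 (4624 UMIs) in the Mll3 deleted library, a log2 ratio of -1.93 (-1.98 to -1.88). Its ratio lay between -2.51 and -1.60 in the surface gates. In the libraries titled Mll4 deleted and Mll3/4 deleted it was at 15.8 and 36.5 CPM. The lowest ratio of all, singled out after the values were seen, was that of E230032D23Rik, an unnamed antisense RNA 608.38 kb from Tspan32 on the same chromosome. It had 2523 UMIs in the control library and 4 in the Mll3 deleted library, a log2 ratio of -8.96 (-11.01 to -7.77). It was at 0.54 and 6.26 CPM in the Mll4 deleted and Mll3/4 deleted libraries, against 21.1 in the control. Whether strand was used in counting was not given in the sources used here, so reads of an antisense RNA and of its partner cannot be told apart. Of 12 members from Mob2 to Ppfia1 on distal chromosome 7, these 2 were past 2-fold and the other 10 lay between -0.42 and 0.76. Among those were Cd81 at 0.23, Kcnq1ot1 at 0.10 and Cdkn1c at 0.76.

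Other lower genes had a range of known roles. Tmsb10, an actin-binding thymosin, was at 592 CPM in the control library and 256 in the Mll3 deleted library, a log2 ratio of -1.21. Tyrobp, an adaptor of myeloid receptors, was at 63.2 and 24.3 CPM, and Clec4e, a C-type lectin receptor, was at 29.3 and 4.12. Fyb, an adaptor of T-cell and platelet signalling, was at 83.0 and 33.6, and Gm2a, a lysosomal lipid-binding protein, at 79.8 and 30.8. Serpinb1a, an inhibitor of neutrophil proteases, was at 223.2 and 97.6 CPM. Nkg7, a cytotoxic granule protein, was at 184.4 and 85.5, and Tespa1, a thymocyte signalling protein, at 77.3 and 33.2. Cd53, a tetraspanin, was at 43.4 and 19.6. Pf4, a platelet chemokine, was at 72.5 and 29.1 CPM, with 72.3% of its control UMIs in 1% of the cells. Of 6 megakaryocyte and platelet members, Pf4 was past 2-fold lower and Cavin2 past 2-fold higher, with a list median of -0.43. Cd48, whose protein separates stem cells from progenitors, was at 99.4 and 55.7. Primary granule genes of granulocyte-monocyte progenitors had a median of 0.18 over 11 members, with Mpo at 0.18 and Elane at 0.46, and a median of 0.74 with gates weighted to control shares. Their medians differed between gates (MPP, gates of multipotent progenitors set by surface proteins), each over the list genes at 20 CPM there. The lowest were -0.14 over 8 genes in the CD150 and CD135 positive gate and -0.12 over 12 in MPP4. The highest were 0.79 in MPP3 and 1.29 in MPP2, over 13 genes each. In MPP2 7 of 13 measured genes of this list were past 2-fold higher and in MPP3 5 of 13, Mpo and Elane among them in both. Myeloid transcription factors had 6 of 7 members above 0 and a median of 0.52, with Egr1 past 2-fold higher, and a median of 0.16 at a minimum of 5 CPM. Myeloid surface and signalling genes had 5 of 7 members below 0 and a median of -0.50, with Tyrobp past 2-fold lower, and a median of -0.12 with gates weighted to control shares.

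S100 and neutrophil granule genes were lower as a group. Of 11 members 10 were below 0, 4 were at least 2-fold lower and none higher, and the median log2 ratio was -0.92. S100a8 and S100a9, which form the calcium-binding protein calprotectin, were at 235.0 and 76.7 and at 312.0 and 106.8 CPM. Camp, the granule peptide cathelicidin, was at 151.2 and 64.6, and Ngp, another granule protein, at 85.2 and 43.6. These genes were counted in few cells: 98.3% of the control UMIs of S100a8 and 99.1% of those of Camp lay in 1% of cells. Cells with at least 5 UMIs over 6 neutrophil precursor markers numbered 73 in the control (1.0%) and 19 in the Mll3 deleted library (0.311%). Those cells held 98.3% and 97.6% of the UMIs of these markers. S100a8 and Camp are among the markers, so their ratios without those cells, -1.09 and -1.04, rest on the few UMIs left and do not locate the difference. In the surface gates S100a8 went from -9.43 to 3.39, so its direction depended on the gate. S100a11, with 4.82% of its control UMIs in 1% of cells, was at 186.3 and 91.9 CPM and between -1.10 and -0.85 in every gate. S100a10, another small calcium-binding family protein, was at 282.2 and 148.7.

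S100a8 and S100a9 lie 22.597 kb apart on chromosome 3, and their promoters are shown because letters of the motifs of 2 myeloid factors occur there (RefSeq, GRCm38.p6, chr3:90668821-90669120 on the plus strand and chr3:90695672-90695971 on the minus strand). Capitals mark PU.1 letters, GAGGAAGT on either strand, in S100a8 and C/EBP letters, TTGCNNAA, in S100a9.
S100a8: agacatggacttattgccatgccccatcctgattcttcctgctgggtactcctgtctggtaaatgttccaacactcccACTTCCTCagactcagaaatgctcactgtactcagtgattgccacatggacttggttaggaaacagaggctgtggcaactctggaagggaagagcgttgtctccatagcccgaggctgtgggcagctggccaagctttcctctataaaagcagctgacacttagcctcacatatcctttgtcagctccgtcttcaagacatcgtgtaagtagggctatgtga
S100a9: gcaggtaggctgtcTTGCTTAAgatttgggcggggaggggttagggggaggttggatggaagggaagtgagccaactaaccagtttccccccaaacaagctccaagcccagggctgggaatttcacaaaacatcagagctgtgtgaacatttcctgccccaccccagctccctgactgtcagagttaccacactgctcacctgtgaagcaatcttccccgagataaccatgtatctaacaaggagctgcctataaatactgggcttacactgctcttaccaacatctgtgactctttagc
Of the 29 lower genes 23 were matched, with 29 promoters. PU.1 letters lay in 5 of these, in 0 of 44 of the higher genes and in 3.27% of member promoters. C/EBP letters lay in 8 of the 29, in 5 of the 44 and in 8.16% of member promoters. Promoters with a CpG ratio (observed over expected) of at least 0.6 made up 76.6% of those of members, 36.4% of those of the higher genes and 20.7% of those of the lower genes. The motifs were chosen after values were seen, and 9 were searched.

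Genes past 2-fold differed in how far their UMIs were gathered in few cells. In 11 of the 53 higher and 6 of the 29 lower genes, 1% of the cells of the library with the higher level held at least 50% of the gene's UMIs, against 30 of 6322 members (0.475%). Those 17 included Vpreb1, Igll1, Ebf1, Cd3g, Ighg3, Iglc2, S100a8 and Camp. The other 42 higher and 23 lower genes lay under that line, which does not divide them into separate kinds: Cd79a was at 48.0%, H2-Eb1 at 44.1% and Hspa1a at 32.7%, against a median of 6.55% over all members. Over all genes at 20 CPM in a gate, those 2-fold higher made up 0.51% in the stem-cell gate, 0.725%, 1.25%, 1.17% and 1.14% in MPP1 to MPP4, and 0.954% in the CD150 and CD135 positive gate. Those 2-fold lower made up 0.741%, 0.664%, 0.829%, 0.422%, 0.642% and 1.51% in the same order. Among the 42, 39 were above 0 in each of the 6 surface gates and 13 were past 2-fold in each. Among the 23, 18 were below 0 in each gate and 5 past 2-fold in each, which were Tspan32, Clec4e, Lst1, Tnip3 and E230032D23Rik. The gates divide the same cells whose sums chose these genes, so a shared sign is no separate check.

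**Figure D2:**
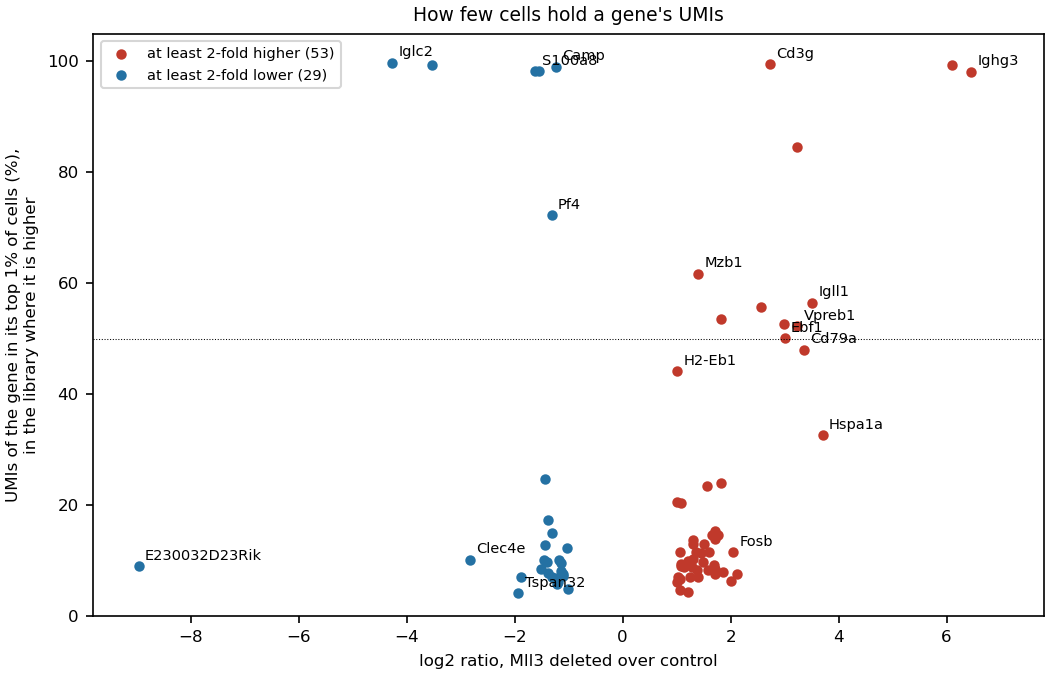
Each point is 1 of the 82 members past 2-fold, with its log2 ratio, Mll3 deleted over control, on the horizontal axis and the percent of its UMIs in the top 1% of cells, in the library where it is higher, on the vertical axis. Above the dotted line at 50% are 11 higher and 6 lower genes, and the rest range up to Cd79a at 48.0%.

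The libraries also differed in the surface proteins that define subsets of LSK cells, measured with 6 antibodies. The gate of stem cells (CD150 positive, CD48 negative, CD135 negative) held 23.7% of control cells (22.8 to 24.7) and 44.4% of Mll3 deleted cells (43.1 to 45.6). The MPP gates hold multipotent progenitors. MPP3 (CD48 positive only), rich in myeloid-biased cells, held 44.3% and 22.3%. MPP1 (negative for all 3), MPP2 (CD150 and CD48 positive) and MPP4 (CD135 positive, CD150 negative) held 13.4% and 15.9%, 4.72% and 3.18%, and 12.1% and 10.6%. The size of the stem-cell difference depended on gating: the shares were 14.6% and 18.8% on counts that were not centred, and 20% and 28.9% with a threshold per library. The antibody counts per cell also differed, at a median of 1256 and 1578. For the antibodies that set the gates, the medians were 21 and 87 for CD150, 698 and 269 for CD48, and 19 and 26 for CD135. With ratios weighted to the control's gate shares, 39 of the 53 higher and 18 of the 29 lower genes stayed past 2-fold, and all kept their direction. Mycn and Aldh1a1 were then under 2-fold at 0.62 and 0.80, as did Tyrobp at -0.75, Nkg7 at -0.65 and Tespa1 at -0.62. Fosb at 1.79, Bex4 at 1.63, Selenom at 1.64 and Tspan32 at -2.14 did not. The 53 and 29 genes were chosen from sums of these same cells, so a kept direction is no separate check.

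**Figure D3:**
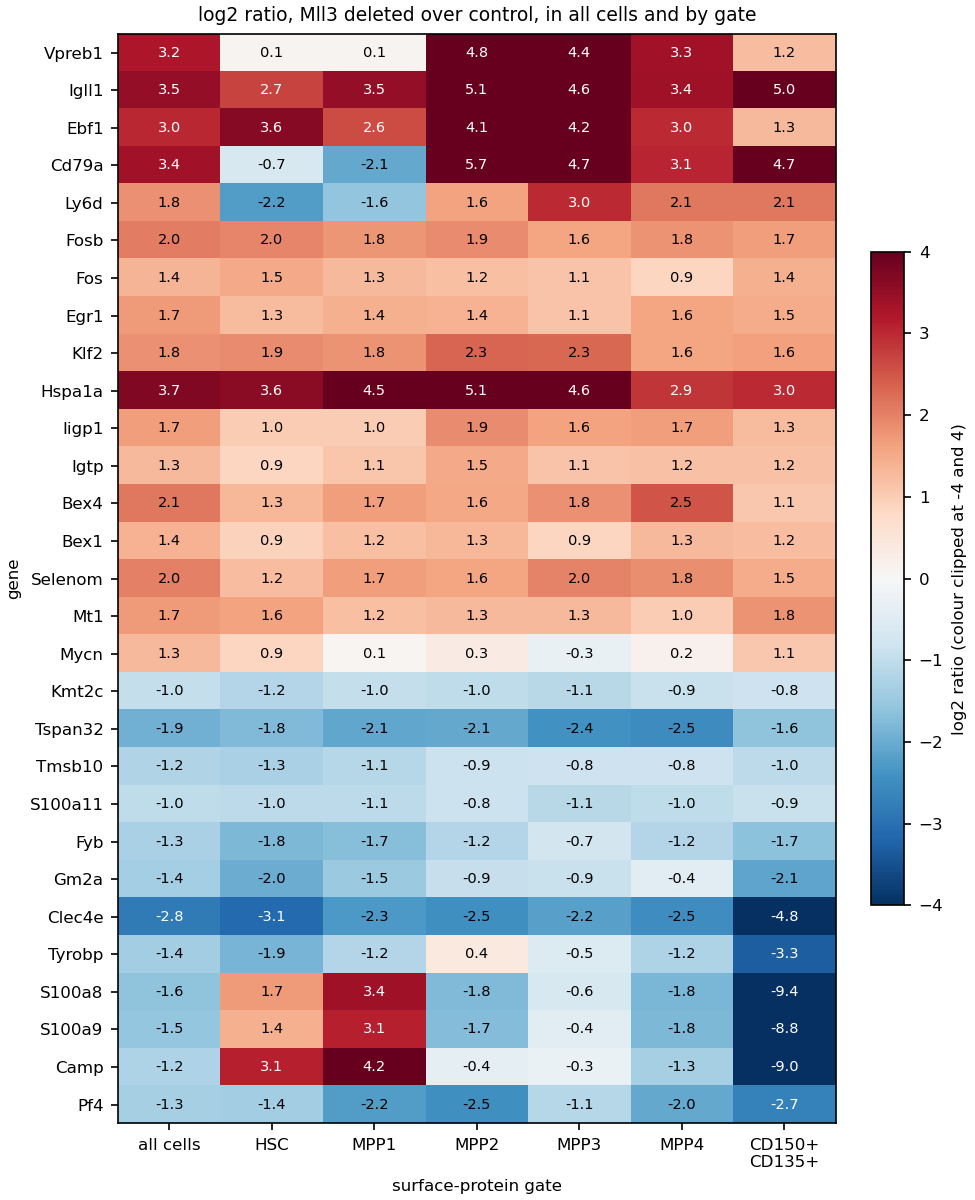
Rows are 29 genes and columns are all cells and the 6 surface-protein gates, with the log2 ratio, Mll3 deleted over control, printed and coloured in each cell. Fosb, Klf2, Hspa1a and Tspan32 have 1 sign in every gate, while Cd79a, Ly6d and S100a8 change sign between gates.

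The remaining genes past 2-fold had under 50 CPM in both libraries, lay outside the top ranks, or were segments or unnamed genes left out of the ranks, and are named after their values were seen. On the higher side were Ighg3, Trbc2, Bfsp2, Cdk5rap1, Ptn, Slfn2, Npdc1, Vill, Gda, Cd302, Gm4951, H2afy2, Cish, Gsta4, Serpinb6a, Ryk, Fam219b, Sla2, Rab4a, Ifi30, Klk8, Gdpd3, Cenpv and Chchd10. Their log2 ratios went from 1.0 for Chchd10 to 6.45 for Ighg3. Vill, a villin-like actin-binding protein, was at 11.6 and 37.9 CPM and between 1.39 and 2.38 in every gate. Cdk5rap1, which modifies mitochondrial transfer RNA, was at 8.62 and 31.2 CPM, and H2afy2, a macroH2A histone variant, at 7.62 and 21.3. Cish, a cytokine-induced inhibitor of STAT5 signalling, was at 12.9 and 35.3 CPM. Chchd10 lies 5.31 kb from Vpreb3 and was at 68.3 and 137.1 CPM, with a ratio of 0.47 without B-lineage cells. On the lower side were Iglc1, Lst1, Tnip3, Xlr4a, Wfdc17, Ffar2, Cd244a, Tent5a, Hemgn, Gpr65, Otos and Hmga2. Lst1, a leukocyte adaptor encoded in the MHC, was at 43.7 and 11.9 CPM, and Tnip3, an inhibitor of NF-kB signalling, at 45.6 and 16.1. Hemgn, a nuclear protein of blood progenitors, had a ratio of -1.18, and Hmga2, a chromatin protein of fetal stem cells, was at 25.9 and 12.7 CPM.

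Members with short transcripts were lower as a class. The 161 members whose longest annotated transcript was under 750 bases had a median log2 ratio of -0.54, and 88.2% of them were below 0. The median was -0.53 without ribosomal protein genes. Medians for longer members lay between 0.05 and 0.18, and 10 of the 29 lower genes fell in the short class. In the libraries titled Mll4 deleted and Mll3/4 deleted the short class had medians of 0.26 and 0.05 against the same control. Fau, which encodes a fusion of a ribosomal protein with a ubiquitin-like sequence, was at 3237 CPM in the control library and 2002 in the Mll3 deleted library. What goes with transcript length here was not tested.

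**Figure D4:**
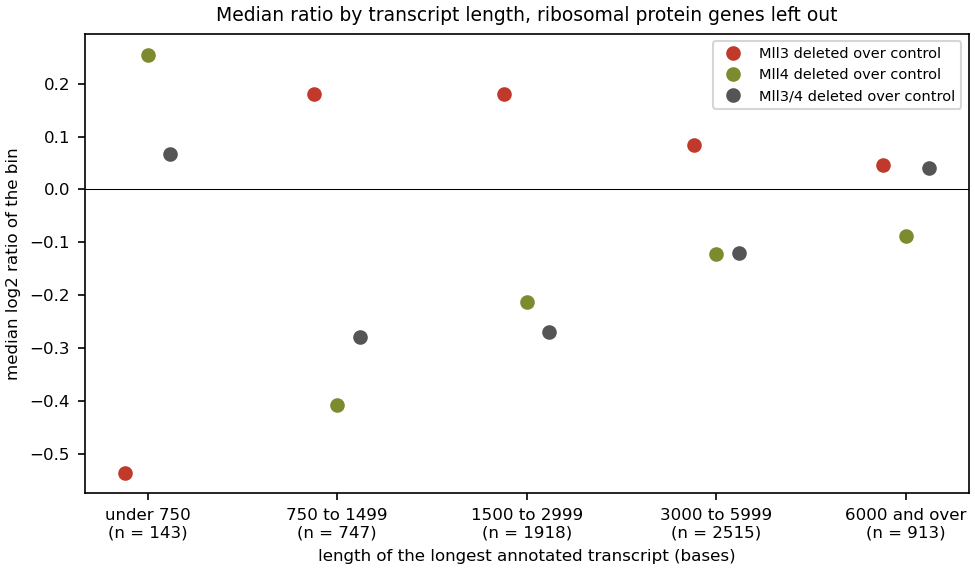
Medians of the log2 ratio over control are plotted by length of the longest annotated transcript in bases, with ribosomal protein genes left out, for the Mll3 deleted library and, for comparison, the 2 other mutants. In the Mll3 deleted library the bin under 750 bases lies at -0.53 and the other bins between 0.05 and 0.18.

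Several housekeeping groups sat on either side of the all-gene median. Of 83 ribosomal protein genes 59 were below 0, with a median of -0.48, from -0.75 for Rps15a to 0.46 for Rplp0, and their share of UMIs was 29.8% in the control library and 25.9% in the Mll3 deleted library. Nuclear genes of the respiratory chain, which makes ATP, had 15 of 20 members below 0 and a median of -0.46, with Ndufa4 at -0.79 and Atp5b at 0.31. Those encoded by the mitochondrial genome had a median of -0.13. Members under 750 bases had a median of -0.54, and whether the ribosomal and nuclear respiratory chain medians go with transcript length was not tested. Replication-dependent histone genes had 11 of 15 below 0 and a median of -0.34, with Hist1h2ap at 2679 and 1697 CPM. These genes have near-identical copies, so single values are uncertain. Genes of G2 and mitosis were all above 0 (22 of 22), 16 of them above the all-member median of 0.11, with a median of 0.34, or 0.53 with gates weighted to control shares. Their median was highest in MPP1, at 0.79, where Cdk1, Ccnb1, Birc5, Aurka, Ube2c and Cdc20 were past 2-fold higher, and lowest in MPP2, at 0.29. Those of S phase were all above 0 (18 of 18), 15 of them above the all-member median, with a median of 0.17. Members of either list under that median, and Ier3 of the immediate early list, turn to below 0 with the shift of median-of-ratios scaling. Cdc20, an activator of the anaphase-promoting complex, was at 0.56, and Mki67 at 0.05. Proteasome subunits were all above 0 (17 of 17), though Psmb3, at 0.11, also turns under that scaling, with a median of 0.28, and glycolysis genes had a median of 0.29. The S phase value came closer to 0 under median-of-ratios scaling, at 0.06, and was 0.28 with gates weighted to control shares. None of these genes passed 2-fold over the whole libraries.

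Genes of stem-cell identity changed little beyond the shift of all genes. Of 14 stem-cell regulators only Mycn passed 2-fold, and the median was 0.16, turning to -0.05 when gates were weighted to control shares. Hlf was at 290.6 and 271.2 CPM and Meis1 at 185.3 and 232.7. Stem-cell surface and signalling genes had a median of 0.23, turning to -0.07 under the same weighting, with Esam at 0.60 and Procr at -0.13. Hox cluster genes had a median of 0.07 over 5 members, turning to -0.03 under TMM scaling.

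**Figure D5:**
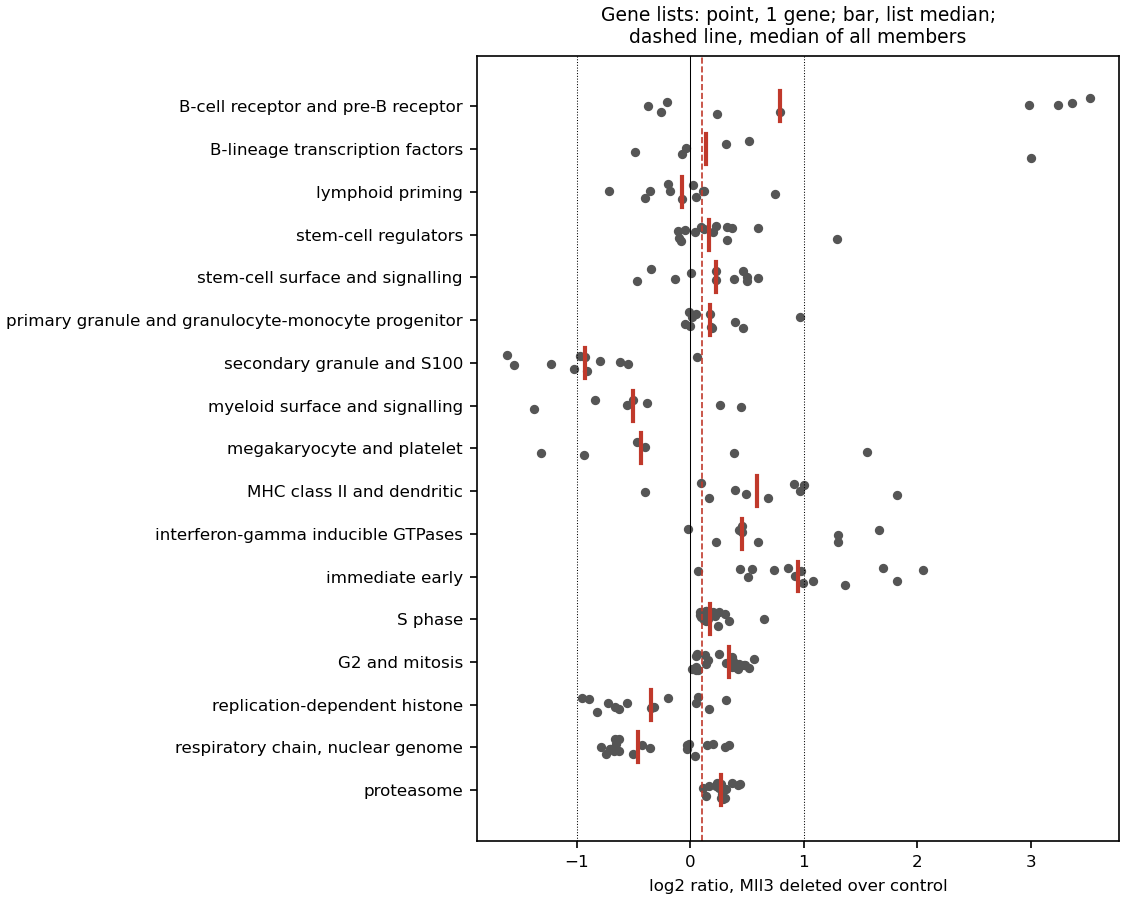
Points are members of 17 gene lists by log2 ratio, Mll3 deleted over control, with a red bar at each list's median and a dashed line at the all-member median of 0.11. Immediate early genes and the class II list sit to the right and S100 and granule genes to the left, while stem-cell regulators straddle the dashed line.

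The largest differences in absolute level were in abundant genes that stayed within 2-fold. Tpt1, a translationally controlled protein, was at 6638 and 7932 CPM, Eef1a1, a translation elongation factor, at 6257 and 7221, and Rack1, a ribosomal scaffold, at 3080 and 4042. Tmsb4x, an actin-binding thymosin, was at 2206 and 1525, and Gas5, a host of small nucleolar RNAs, at 974 and 600.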

How the data were processed

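The authors deposited raw UMI and antibody counts per cell barcode, and per the submitters' processing notes they used Cell Ranger 6.1.1 and mm10. Alignment settings and the rule that chose the deposited barcodes were not given in the sources used here. Per the labels' protocols the chemistry was 10x Genomics Chromium 3' version 3.1. Counts of kept cells were summed per library and scaled to the library total as CPM. Log2 ratios used 0.5 added UMIs, with exact conditional binomial intervals, and no test was run. Shares have Clopper-Pearson intervals. Scrublet's own threshold called 3 cells in each library, too few to have worked, so all cells were kept, and removal of the highest scores was an alternative. Antibody counts were centred as log ratios and gated at the crossing of a Gaussian mixture fitted to all 4 libraries. Gates of at least 100 cells in each library were used. For shares of cells with a UMI, 14 control and 17 Mll3 deleted cells with fewer than 3000 UMIs were left out. Gene coordinates are from GENCODE M21, in which 99.6% of identifiers were found, and promoters from RefSeq. The analysis used Python 3.11.15, scanpy 1.11.5 and edgeR 4.0.16 (for TMM factors), and the ratio script was tested on simulated data. Members and gene lists were chosen with earlier results of these data known.

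Named genes were Kmt2c and Kmt2d, the 15 highest and 15 lowest ratios among members with at least 50 CPM in either library, the 5 largest rises and 5 largest falls in level, and members of the gene lists past 2-fold. The ranks left out genes of ribosomal proteins, mitochondria and haemoglobin, segments of immunoglobulins and T-cell receptors, Xist, Tsix and Y genes, and genes without a name. Genes named outside this rule were chosen after their values were seen.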

Additional observations from a re-analysis of the deposited data

How the results depend on the processing

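No paired analysis was possible because each genotype has 1 library, and leaving out a replicate was not possible for the same reason. Alternatives changed scaling, the expression minimum, the fold, the cell filter, doublet removal, cell weights, the total and gating, and 1 (leaving out cells with B-lineage, plasma or neutrophil markers together) was added after the data were seen. The log2 ratio of Kmt2c was -1.06 with TMM, -1.08 with median-of-ratios scaling, -1.04 with the stricter cell filter, -1.05 with the total without mitochondrial and ribosomal protein genes and -1.06 with gate weighting. The count of higher genes was 173 at a minimum of 5 CPM, 9 at 100, 150 at 1.5-fold and 25 at 3-fold. The count of lower genes was 47 with TMM, 50 with median-of-ratios scaling, 96 at 5 CPM, 9 at 100, 220 at 1.5-fold, 7 at 3-fold and 67 with the total without mitochondrial and ribosomal protein genes. The SD over genes was 0.42 at 5 CPM, 0.35 at 100, 0.35 with the stricter filter, 0.35 with equal weight per cell, 0.38 with gate weighting, 0.33 without B-lineage cells and 0.33 in the added alternative. The stem-cell gate share of Mll3 deleted cells was 43.1% with the stricter filter, 18.8% not centred and 28.9% with a threshold per library. Bfsp2, at 2.57, turned to -0.11 without B-lineage cells and to -0.16 in the added alternative. Both alternatives leave out cells with B-lineage markers, of which Bfsp2 is not one, and the share of its UMIs in those cells is not given here. The cause of this and of the other moves was not tested. Of the 53 higher genes 36 were under 20 CPM in the control library, and of the 29 lower genes 15 were under it in the Mll3 deleted library, so they passed the minimum through 1 library. Counting intervals lay wholly past 2-fold for 46 higher and 27 lower genes, and depth leaves the rest on either side of it.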
